A study of Homo sapiens with 17 samples.

Results

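The 10 genes described here encode the kinase MTOR, its complex partners RPTOR, RICTOR, MLST8, DEPTOR and AKT1S1, the rapamycin-binding protein FKBP1A, the activating GTPase RHEB and the downstream effectors RPS6KB1 and EIF4EBP1. They were chosen by their role in the pathway, with earlier results of these data known, and are 10 of the 19775 genes measured. Each gene is represented by the brightest, by its mean signal, of the probe sets annotated to it alone. As a check, 19 other probe sets of these genes were used, but RPTOR, MLST8 and EIF4EBP1 have no other. RNA of L363, a human multiple myeloma line, was hybridised to 17 arrays after 48 hours without drug or with drug. MS275 (MS-275, entinostat, an inhibitor of class I histone deacetylases) was used at 0.5 uM (3 arrays), rapamycin at 1 nM (3) or 10 nM (3), and MS275 together with 1 nM rapamycin (the 1 nM combination, 3) or 10 nM rapamycin (the 10 nM combination, 2). Untreated control cells make up the last 3 arrays, and 1 array had been removed at quality control by the submitters. No label tells if the replicates were grown separately, so p-values measure only the spread between these arrays, which may be technical. All arrays come from 1 cell line, and they measure RNA, not protein or phosphorylation.

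MTOR is a protein kinase that works in a pair of complexes. Complex 1, built around the scaffold RPTOR, couples nutrients and growth factors to protein synthesis through S6 kinase (RPS6KB1) and the translation repressor 4E-BP1 (EIF4EBP1), and RHEB switches it on at the lysosome. Complex 2, built around RICTOR, phosphorylates AKT. MLST8 belongs to both, DEPTOR inhibits both, and AKT1S1 (PRAS40) inhibits complex 1. Rapamycin acts only after it has bound FKBP12, the product of FKBP1A, and the pair then docks on MTOR. DEPTOR is known for its high expression in a subset of multiple myelomas, where it has been linked to the survival of the cells.

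Values below are deposited log2 signals, so a difference of 1 is a doubling of signal, and probe sets differ in brightness, so no gene's level is set against another's. Group comparisons were made with limma across all genes, with Benjamini-Hochberg adjustment and a threshold of 0.05. Besides comparisons between groups, the MS275 main effect is the mean difference between with and without MS275 over the 3 rapamycin doses (0, 1 and 10 nM). The rapamycin main effect is the mean difference between either dose and none, with and without MS275. A pair of arrays stood apart from the rest and are called the narrow arrays. These are replicate 1 of the 1 nM combination and replicate 1 of the control, whose signals spread less, by an SD over probe sets of 2.15 and 2.14 where each of the other 15 had 2.27 to 2.37. In replicate 1 of the 1 nM combination, 8 of the 10 genes lay outside the range of the other 2 arrays of its group, as did 76% of all genes. In control replicate 1 the count was also 8 of 10, beside 83.3% of all genes. Results that rest on these arrays are given with and without them. Median signals were 5.09 to 5.36 per array, and no pair of arrays held identical values. Of the markers checked, the 8 plasma cell genes had mean signals of 8.09 (CD38) to 12.5 (IRF4), while the lists of B cell, T cell, myeloid, epithelial and fibroblast genes had median signals of 4.47 to 5.48. In bulk RNA, fewer cells of a type and less RNA per cell cannot be told apart.

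None of the 10 genes passed the threshold in any of the 15 comparisons by limma with Benjamini-Hochberg adjustment. Without adjustment 5 had a p under 0.05 in the MS275 main effect, beside 3630 of all 19775 genes. In the rapamycin main effect 1 did, beside 2176 of all genes. Over all genes, 8.13% passed in the MS275 main effect and 2.35% in the rapamycin main effect, so a list of 10 genes with no call lies near the background. The MS275 main effect was negative for 9 of the 10 genes, beside 45% of all genes, and its median over the 10 was -0.28 on the log2 scale, beside 0.02 over all genes. Of the 9, RHEB lay at -0.001 and became positive, at 0.01, without the narrow arrays. The rapamycin main effect was negative for 7 of the 10, beside 59.4% of all genes, with a median of -0.08 beside -0.04. DEPTOR and MLST8 came nearest to the threshold, both lower with MS275. Both passed it in 6 of 25 alternative settings of the MS275 main effect, which are given with their values.

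**Figure D1:**
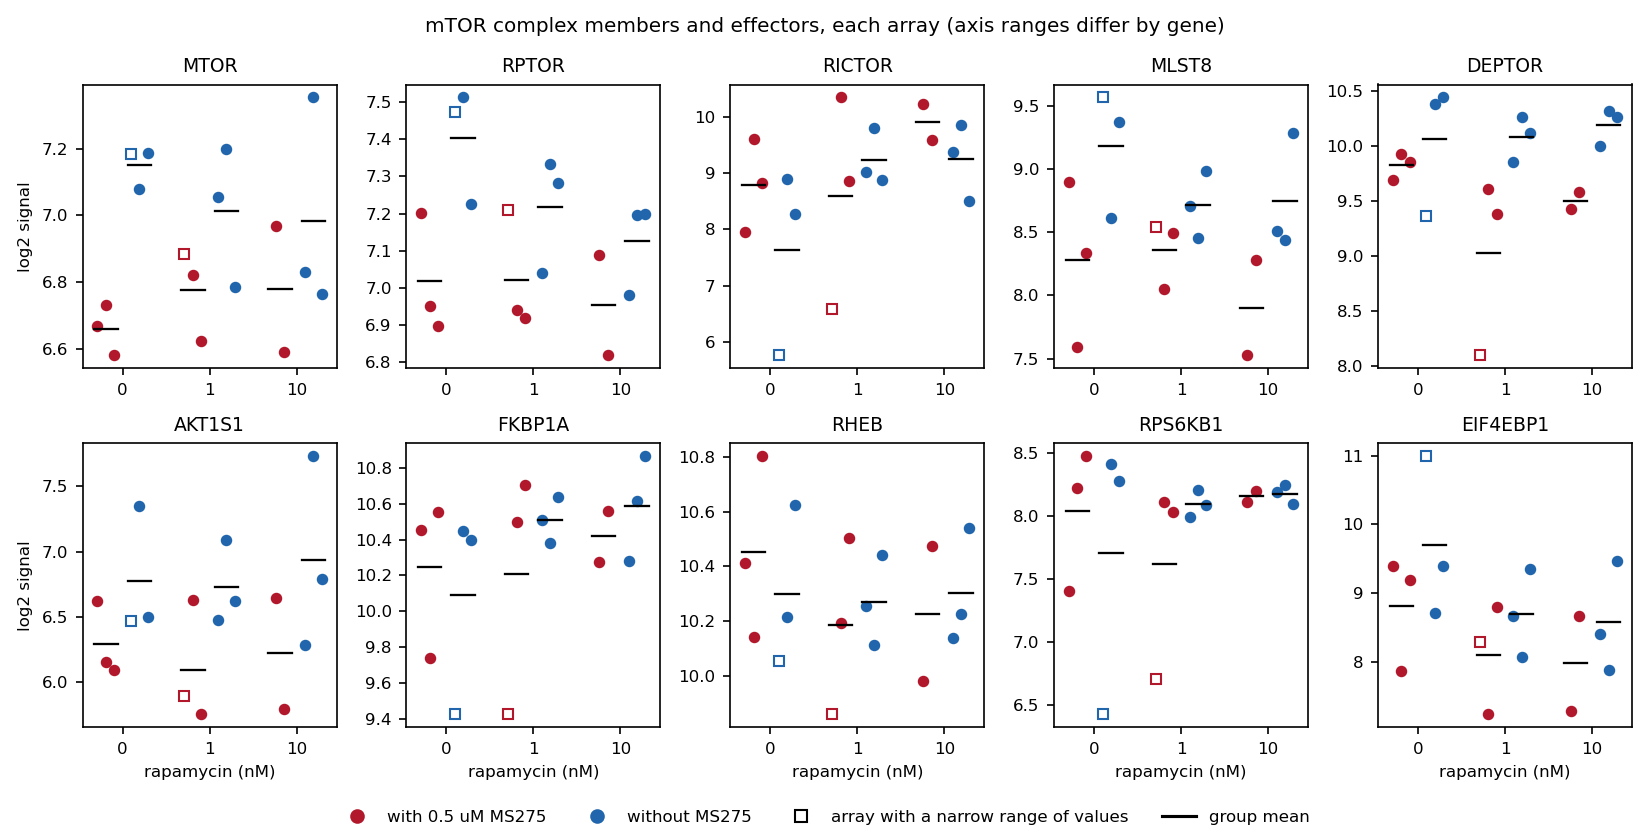
Log2 signal of the 10 genes on each array, by rapamycin dose (horizontal axis, nM), with 0.5 uM MS275 in red on the left of each dose and without it in blue on the right. Bars are group means and open squares the 2 arrays with a narrow range, which are the lowest of their groups for DEPTOR, at 8.10 in the 1 nM combination and 9.37 in control.

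FKBP1A, the protein that carries rapamycin to MTOR, overlapped the control arrays in every group. It had signals of 10.51, 10.38 and 10.64 in 1 nM rapamycin and 10.28, 10.61 and 10.86 in 10 nM rapamycin. With MS275 alone it had 10.45, 9.74 and 10.55, the 1 nM combination gave 9.43, 10.50 and 10.71, the 10 nM combination 10.27 and 10.56, and control cells 9.43, 10.45 and 10.40. The 2 lowest values, both 9.43, came from the 2 narrow arrays. The rapamycin main effect was 0.26 ± 0.21 (SE), with a 95% interval of -0.20 to 0.72, and 0.19 with an interval half-width of 0.32 without the narrow arrays. With MS275 the main effect was -0.10, with an interval of -0.54 to 0.34. These intervals leave room for changes of up to 0.72 on the log2 scale, so equal levels are not shown.

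The closest relative of FKBP1A, FKBP1B (FKBP12.6, which also binds rapamycin), rose with MS275. FKBP1B is not 1 of the 10 genes but belongs to the listed FKBP family. Its signals were 6.20, 6.30 and 6.98 with MS275, against 3.40, 3.74 and 3.83 in control cells. They were 4.52, 5.47 and 6.14 in the 1 nM combination, against 2.81, 3.66 and 2.80 in 1 nM rapamycin. The 10 nM combination had 5.36 and 6.01, against 2.98, 3.42 and 3.28 in 10 nM rapamycin. All 8 arrays with MS275, at 4.52 to 6.98, lay above all 9 without it, at 2.80 to 3.83. Its MS275 main effect was 2.53 ± 0.22 (SE) on the log2 scale, with an adjusted p of 8.59e-06 by limma, and FKBP1B passed in all 24 alternative settings, with values of 2.40 to 2.72. It rose by 2.84 with MS275 alone (adjusted p = 0.00138), by 1.72 in the 1 nM combination (adjusted p = 0.0190) and by 2.03 in the 10 nM combination (adjusted p = 0.0140), each against control by limma. Against its own rapamycin dose it rose by 2.29 in the 1 nM combination (adjusted p = 0.00672) and by 2.46 in the 10 nM combination (adjusted p = 0.0165). FKBP1B has a single probe set. Its signals without MS275 lie among those of markers of other lineages, such as EPCAM (mean 2.72) and LYZ (2.98), and signal over background is not known, so no fold is given and the log2 changes may understate the rise. Against control, its call in the 1 nM combination was lost without control replicate 2 and without replicate 2 or 3 of the combination, and in the 10 nM combination without its replicate 2. The difference between the changes of FKBP1B and FKBP1A was not itself tested.

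**Figure D2:**
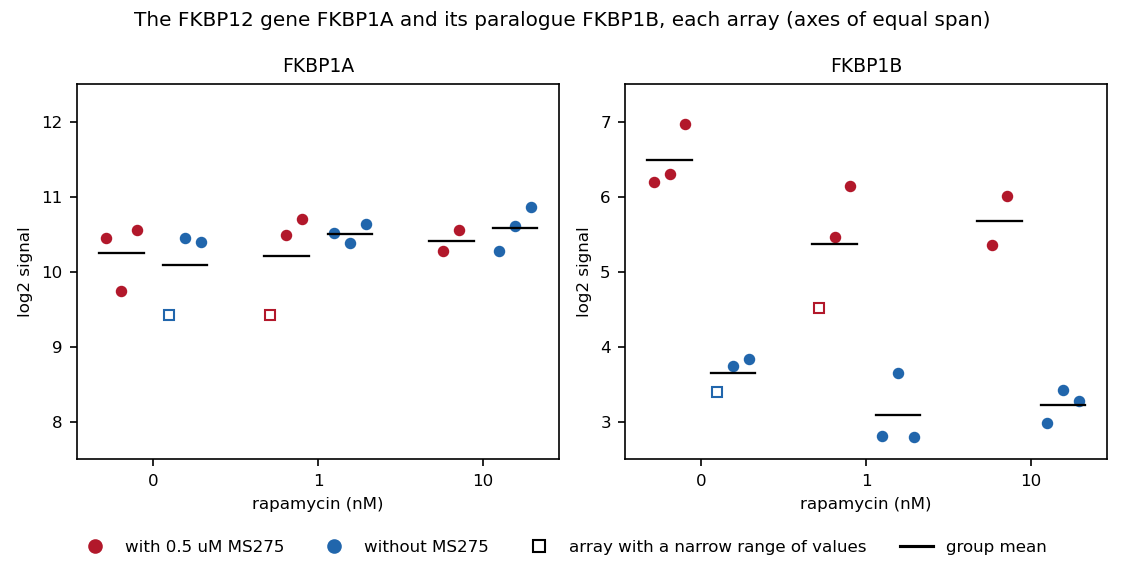
Log2 signal of FKBP1A and FKBP1B on each array by rapamycin dose (nM), with MS275 in red and without it in blue, on axes that span the same number of log2 units. FKBP1B lies at 4.52 to 6.98 on all arrays with MS275 and at 2.80 to 3.83 on all others, while the FKBP1A arrays overlap.

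The promoters of both genes are shown so that the call for FKBP1B and the lack of one for the used FKBP1A probe set can be set beside their sequences. They are RefSeq sequences of build GRCh38.p14, from 250 bases before to 50 after the start of transcription, 5′ to 3′ on the gene's strand, with each CpG (cytosine followed by guanine) in capitals. FKBP1A lies on the minus strand at chr20:1393005-1393304 and FKBP1B on the plus strand at chr2:24049491-24049790.
FKBP1A: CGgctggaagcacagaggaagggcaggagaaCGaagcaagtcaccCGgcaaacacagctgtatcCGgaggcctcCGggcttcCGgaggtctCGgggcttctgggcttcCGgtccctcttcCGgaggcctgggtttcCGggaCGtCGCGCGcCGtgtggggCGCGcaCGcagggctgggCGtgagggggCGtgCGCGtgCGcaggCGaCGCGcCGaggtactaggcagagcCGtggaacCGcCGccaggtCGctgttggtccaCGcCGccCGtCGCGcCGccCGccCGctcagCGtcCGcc
FKBP1B: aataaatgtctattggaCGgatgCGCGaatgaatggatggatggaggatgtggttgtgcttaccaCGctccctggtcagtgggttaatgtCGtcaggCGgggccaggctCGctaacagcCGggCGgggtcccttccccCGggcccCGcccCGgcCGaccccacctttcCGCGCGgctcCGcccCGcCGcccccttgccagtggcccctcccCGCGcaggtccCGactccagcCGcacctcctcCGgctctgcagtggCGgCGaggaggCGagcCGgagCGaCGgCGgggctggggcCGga
The FKBP1A window holds 41 CpG and 72.67% G or C, and 93.31% of the promoters in the table hold fewer CpG. The FKBP1B window holds 32 CpG and 70.67% G or C, with 81.13% of promoters holding fewer, and the median over all 35116 promoters is 14. The GC box GGGCGG, counted on both strands, occurs 3 times in FKBP1A and 4 times in FKBP1B, and 44.95% of all promoters hold it. The E-box CACGTG is in neither window and in 7.256% of all promoters. The CCAAT box is in FKBP1B once and not in FKBP1A, and 34.61% of promoters hold it. These are matches of letters only. Promoters of 6 of the 10 genes were in the table.

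MTOR itself was lower in MS275 arrays, without passing the threshold. Its signals were 6.67, 6.73 and 6.58 with MS275, against 7.18, 7.08 and 7.19 in control cells, and these groups did not overlap. The 1 nM combination had 6.88, 6.82 and 6.62 and the 10 nM combination 6.97 and 6.59, also below all control arrays. With rapamycin alone MTOR had 7.05, 7.20 and 6.78 at 1 nM and 6.83, 7.35 and 6.76 at 10 nM, which overlapped the control arrays. With MS275 alone the difference was -0.49 ± 0.18 (SE), which missed the threshold (adjusted p = 0.275 by limma). Between MS275 and control, 2 of the 10 genes (MTOR and RPTOR) had arrays that did not overlap, beside 11% of all genes, and 1.49% of all genes passed the threshold. The MS275 main effect on MTOR was -0.31, with a 95% interval of -0.54 to -0.08 before adjustment and an adjusted p of 0.110 by limma. With array weights it was -0.34 and passed (adjusted p = 0.0317 by limma), where 16% of all genes passed. MTOR passed in this 1 of 25 alternative settings only. The rapamycin main effect on MTOR was -0.02, with an interval of -0.26 to 0.22, the narrowest bound on a rapamycin response among the 10 genes after RPTOR.

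RPTOR, the scaffold of complex 1, had signals of 7.20, 6.95 and 6.90 with MS275, against 7.47, 7.51 and 7.23 in control cells. In the 1 nM combination it had 7.21, 6.94 and 6.92 and in the 10 nM combination 7.09 and 6.82, all below the lowest control array. With 1 nM rapamycin it had 7.04, 7.33 and 7.28 and with 10 nM 6.98, 7.20 and 7.20. Every group with MS275 lay below control without overlap, and so did 10 nM rapamycin alone, at -0.28 (adjusted p = 0.838 by limma). For RPTOR the MS275 main effect was -0.25 ± 0.10 (SE, adjusted p = 0.149 by limma) and the rapamycin main effect -0.13, with an interval of -0.35 to 0.08.

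RICTOR, the scaffold of complex 2, had the widest range of the 10 genes over the 17 arrays, which the narrow arrays enlarged. Without them it still ran from 7.95 to 10.34. Its median SD within groups, 0.76, was below the 0.82 of EIF4EBP1. Its signals were 7.95, 9.61 and 8.83 with MS275, 9.01, 9.80 and 8.87 with 1 nM rapamycin, 6.59, 10.34 and 8.86 in the 1 nM combination, 9.38, 9.85 and 8.51 with 10 nM rapamycin, 10.22 and 9.58 in the 10 nM combination, and 5.76, 8.89 and 8.26 in control cells. The lowest values of the 17 arrays were those of the 2 narrow arrays, with a difference from the mean of the other replicates of -3.02 for the 1 nM combination and -2.82 for control. The 10 nM combination lay above all control arrays, with a difference of 2.26 ± 0.96 (SE), which missed the threshold (adjusted p = 0.288 by limma). Without control replicate 1 that difference was 1.33. The rapamycin main effect was 1.03, with an interval of -0.13 to 2.18, and 0.81 ± 0.34 without the narrow arrays (adjusted p = 0.318).

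MLST8, a subunit of both complexes, was lower with MS275 on most arrays. It had signals of 8.89, 7.60 and 8.34 with MS275, against 9.56, 8.61 and 9.37 in control cells. With 1 nM rapamycin added MLST8 had 8.54, 8.05 and 8.49, against 8.71, 8.45 and 8.98 in 1 nM rapamycin alone. The 10 nM combination had 7.53 and 8.28, against 8.51, 8.44 and 9.29 in 10 nM rapamycin, with no overlap. The MS275 main effect was -0.70 ± 0.21 (SE), with an interval of -1.15 to -0.25 and an adjusted p of 0.0583 by limma, just over the threshold. With the replicate number as a block it was -0.66 with an adjusted p of 0.0300 by limma, where 12.5% of all genes passed. That block also covers the 10 nM combination, whose replicate numbers did not pair with those of other groups. Without the 2 narrow arrays the main effect was -0.66 with an adjusted p of 0.0878. It also passed with array weights (-0.65), among genes above the median level alone (-0.70, where 12.2% passed), and without control replicate 2 (-0.79), MS275 replicate 1 (-0.80, where 7.5% passed, as without control replicate 2) or replicate 2 of the 10 nM combination (-0.82, where 6.21% passed). With array weights 16% of all genes passed in the MS275 main effect. The comparison of the 10 nM combination with control gave -1.28 ± 0.39 (adjusted p = 0.107 by limma). With array weights it gave -1.35 and passed (adjusted p = 0.0312 by limma), where 7.86% of all genes passed. In that comparison 5 of the 10 genes (MTOR, RPTOR, RICTOR, MLST8 and EIF4EBP1) did not overlap with control, beside 21.5% of all genes, and 3.3% of all genes passed the threshold.

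DEPTOR, the inhibitor of both complexes, was lower on arrays with MS275 and lowest in the combinations. Its signals were 9.70, 9.93 and 9.86 with MS275, against 9.37, 10.38 and 10.44 in control cells. In the 1 nM combination it had 8.10, 9.61 and 9.39, against 9.86, 10.27 and 10.12 in 1 nM rapamycin, with no overlap. The 10 nM combination had 9.43 and 9.58, against 10.00, 10.32 and 10.27 in 10 nM rapamycin, also with no overlap. With rapamycin alone the difference from control was 0.02 at 1 nM and 0.13 at 10 nM with all arrays, and -0.33 and -0.22 without the narrow ones. Array weights gave -0.48 at 1 nM (adjusted p = 0.0611 by limma), and rapamycin alone passed in none of these fits. Over all arrays DEPTOR had 8.10 to 9.93 with MS275 (median 9.60, 8 arrays) and 9.37 to 10.44 without it (median 10.27, 9 arrays). Without the narrow arrays the ranges were 9.39 to 9.93 and 9.86 to 10.44, which still overlapped. By group mean DEPTOR ran, low to high, through the 1 nM combination (9.03), the 10 nM combination (9.51), MS275 (9.83), control (10.07), 1 nM rapamycin (10.08) and 10 nM rapamycin (10.19). Without the narrow arrays control was highest, at 10.41, and the combinations were level, at 9.50 for 1 nM and 9.51 for 10 nM. The orders of all 10 genes with all arrays hold 50 steps between neighbours. Only DEPTOR's step between MS275 and the 10 nM combination exceeded the summed SDs of its groups without overlap of arrays. The share of such steps over all genes was not counted, and the 10 nM combination has 2 arrays. Between these groups 18.2% of all genes did not overlap, and DEPTOR, at -0.32, was not called by limma.

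In DEPTOR, the 1 nM combination differed from control by -1.03 ± 0.34 (SE), which missed the threshold (adjusted p = 0.160 by limma), while 2.7% of all genes passed. It passed in 5 of 26 alternative settings, with values of -1.38 to -0.57 over all of them. Same-numbered arrays of control and the 1 nM combination deviated together from their group means, with correlations of 0.82, 0.71 and 0.57. Replicate 1 of both groups is a narrow array, so these correlations cannot tell a pairing from the shared narrow range. With the number as a block the difference was -1.03 with an adjusted p of 0.0270 by limma, where 5.22% of all genes passed. DEPTOR was lower in the combination in 3 of 3 same-numbered pairs, with differences of -1.27, -0.77 and -1.06. So were MTOR, RPTOR, MLST8, AKT1S1, RHEB and EIF4EBP1, in 3 of 3 pairs each, and the share over all genes was not counted. Against control, DEPTOR was lower in 2 of 3 pairs with MS275 alone and in 1 of 2 with the 10 nM combination. Without the 2 narrow arrays the difference was -0.91 ± 0.17 (adjusted p = 0.0139, with 3.15% of all genes called). Without control replicate 1 it was -1.38 with an adjusted p of 0.0338, where 4.08% of all genes passed. With array weights it was -1.06 (adjusted p = 0.0141, with 7.08% called), and with the block and without the narrow arrays -0.91 (adjusted p = 0.00323, with 5.78% called). Against 1 nM rapamycin the difference was -1.05 (adjusted p = 0.209 by limma, where 1.23% of all genes passed), and it passed in 2 of 26 settings. Without the narrow arrays it was -0.58 (adjusted p = 0.117). With the block the adjusted p was 0.0391, where 2.83% passed, and with the block and without the narrow arrays the difference was -0.66 (adjusted p = 0.0211, with 2.26% called).

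For the 10 nM combination DEPTOR differed from control by -0.56 ± 0.38 (adjusted p = 0.588 by limma), and it passed in 3 of 26 alternative settings, with values of -0.91 to -0.37. The block alone gave -0.47 (adjusted p = 0.386). The replicate numbers did not pair this group. Its replicate 2 correlated at -0.63 with replicate 2 of 10 nM rapamycin, -0.66 with that of MS275 and -0.74 with that of 1 nM rapamycin. Every block fit was a single model over all groups, so each includes this group, also where other groups are compared. For this group the block rests on no pairing, and these negative correlations are opposite to the shared shift that the block assumes. Without the 2 narrow arrays the difference from control was -0.91 ± 0.17 (adjusted p = 0.0106, with 4.74% of all genes called), with array weights -0.90 (adjusted p = 0.0451, with 7.86% called), and with the block and without the narrow arrays -0.80 (adjusted p = 0.00710, with 6.74% called). Against 10 nM rapamycin, where 0.435% of all genes passed, it was -0.69 (adjusted p = 0.884), with the block alone -0.60 (adjusted p = 0.465), and -0.67 with the block and without the narrow arrays (adjusted p = 0.0187, with 3.15% called). MS275 alone differed from control by -0.24, by -0.58 without the narrow arrays (adjusted p = 0.0775), and by -0.50 with the block and without the narrow arrays (adjusted p = 0.0450, with 4.47% called).

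Across the doses the MS275 main effect on DEPTOR was -0.66 ± 0.21 (SE), with an interval of -1.10 to -0.22 and an adjusted p of 0.0692 by limma. It passed the threshold in 6 of 25 alternative settings, with adjusted p-values of up to 0.164 in the others. The settings in which it passed were the replicate block (-0.63, adjusted p = 0.0130), leaving out the 2 narrow arrays (-0.62 ± 0.09, adjusted p = 0.00103, with 11.6% of all genes called), array weights (-0.59, with 16% called), leaving out control replicate 1 (-0.77, with 10.8% called), leaving out replicate 2 of the 1 nM combination (-0.76, with 7.19% called), and the block without the narrow arrays (-0.61, adjusted p = 0.00025, with 16.9% called). With the replicate block alone, 12.5% of all genes were called. Over all alternatives the main effect on DEPTOR ranged from -0.77 to -0.50. A second, much dimmer DEPTOR probe set gave -0.79 ± 0.41 and did not pass (adjusted p = 0.413). The part of the narrow arrays in the missed call was not tested beyond these fits.

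**Figure D3:**
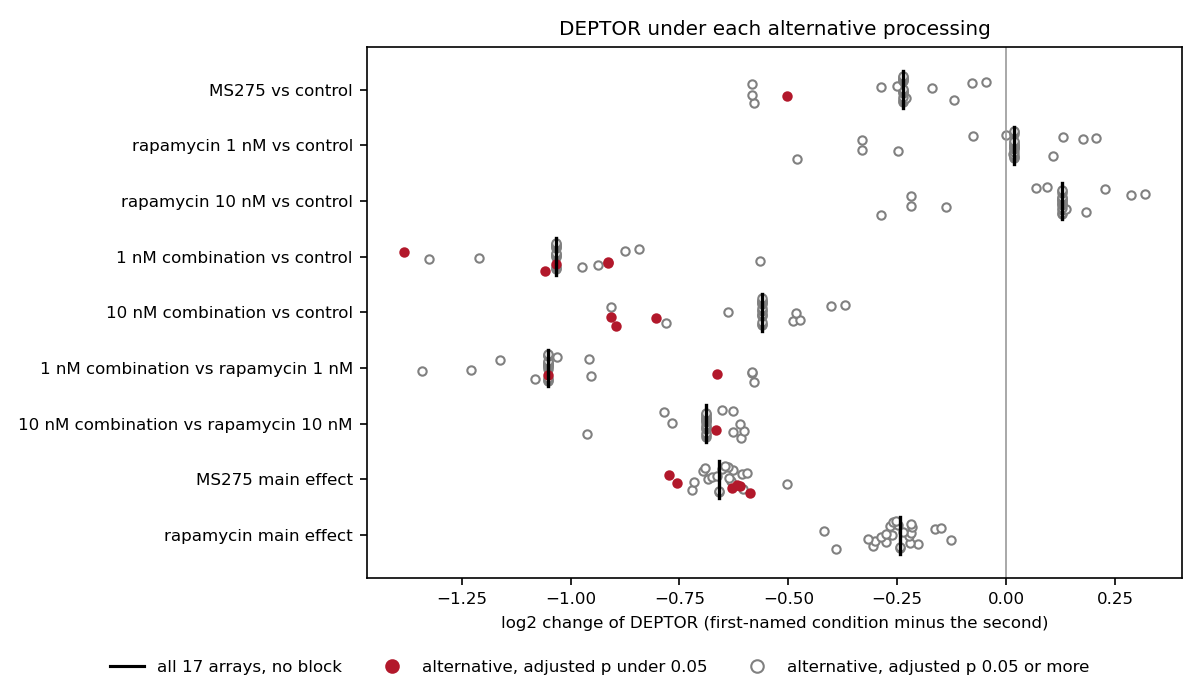
Log2 change of DEPTOR (horizontal axis) in 9 comparisons, with a black bar for the fit to all 17 arrays and a circle for each alternative, red where the adjusted p was under 0.05 and open otherwise. The MS275 main effect keeps between -0.77 and -0.50, while rapamycin alone lies on both sides of 0.

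AKT1S1, the inhibitor of complex 1, had signals of 6.62, 6.15 and 6.09 with MS275, against 6.47, 7.35 and 6.50 in control cells. In the 1 nM combination it had 5.89, 6.63 and 5.75, against 6.47, 7.09 and 6.62 in 1 nM rapamycin. The 10 nM combination had 6.64 and 5.79, against 6.28, 7.73 and 6.79 in 10 nM rapamycin. The groups overlapped in each of these comparisons. Its MS275 main effect was -0.61 ± 0.23 (SE), with an interval of -1.10 to -0.13 and an adjusted p of 0.133 by limma, and the rapamycin main effect was -0.04.

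RHEB, the GTPase that activates complex 1, had the MS275 main effect nearest to 0 of the 10 genes. Its signals were 10.41, 10.14 and 10.80 with MS275, 10.26, 10.11 and 10.44 with 1 nM rapamycin, 10.14, 10.23 and 10.54 with 10 nM rapamycin, 9.86, 10.19 and 10.50 with 1 nM rapamycin plus MS275, 9.98 and 10.48 with 10 nM plus MS275, and 10.05, 10.22 and 10.62 in control cells. All groups overlapped the control. Its MS275 main effect was -0.00, with an interval of -0.30 to 0.30. The rapamycin main effect was -0.13, with an interval of -0.44 to 0.18. These intervals bound the used probe set only, because the other RHEB probe sets differed from it. Their correlations with it ran from -0.55 to 0.76. A probe set with a mean of 8.41 had 7.65 in control, narrow array included, and 8.67 with 10 nM rapamycin. Another, with a mean of 6.495, went the other way, from 6.92 to 6.52.

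Of the effectors, RPS6KB1 (S6 kinase 1) had signals of 7.41, 8.23 and 8.47 with MS275, 7.99, 8.21 and 8.09 with 1 nM rapamycin, 6.71, 8.11 and 8.03 in the 1 nM combination, 8.19, 8.25 and 8.09 with 10 nM rapamycin, 8.11 and 8.20 in the 10 nM combination, and 6.43, 8.41 and 8.28 in control cells. All but the 2 narrow arrays and 1 MS275 array lay at 7.99 or above. The rapamycin main effect was 0.14 with all arrays and -0.07 without the narrow ones, so its sign rested on them.

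EIF4EBP1, the translation repressor 4E-BP1, had the lowest group means in the combinations. It had 8.28, 7.24 and 8.79 with 1 nM rapamycin plus MS275, 7.28 and 8.67 with 10 nM plus MS275, 9.39, 7.87 and 9.19 with MS275, 8.67, 8.07 and 9.34 with 1 nM rapamycin, 8.40, 7.88 and 9.47 with 10 nM rapamycin, and 10.99, 8.70 and 9.40 in control cells. Only the 10 nM combination did not overlap control. The difference was -1.72 ± 0.71 (SE) there (adjusted p = 0.268 by limma), against -1.59 ± 0.64 for the 1 nM dose (adjusted p = 0.279). Without control replicate 1 the 1 nM value was -0.95, and without both narrow arrays it was -1.04, against -1.08 for 10 nM. The highest value, 10.99, was the narrow control array, 1.94 above the mean of the other control replicates. Over the alternatives the 10 nM combination's difference lay between -2.41, without its replicate 2, and -0.67, with the block and without the narrow arrays. The rapamycin main effect on EIF4EBP1 was -0.92 with all arrays and -0.62 without the narrow ones, and ran from -1.17 to -0.52 over the alternatives. The MS275 main effect was -0.69 with all arrays and -0.51 without the narrow ones. Neither passed the threshold in any of 25 alternative settings.

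**Figure D4:**
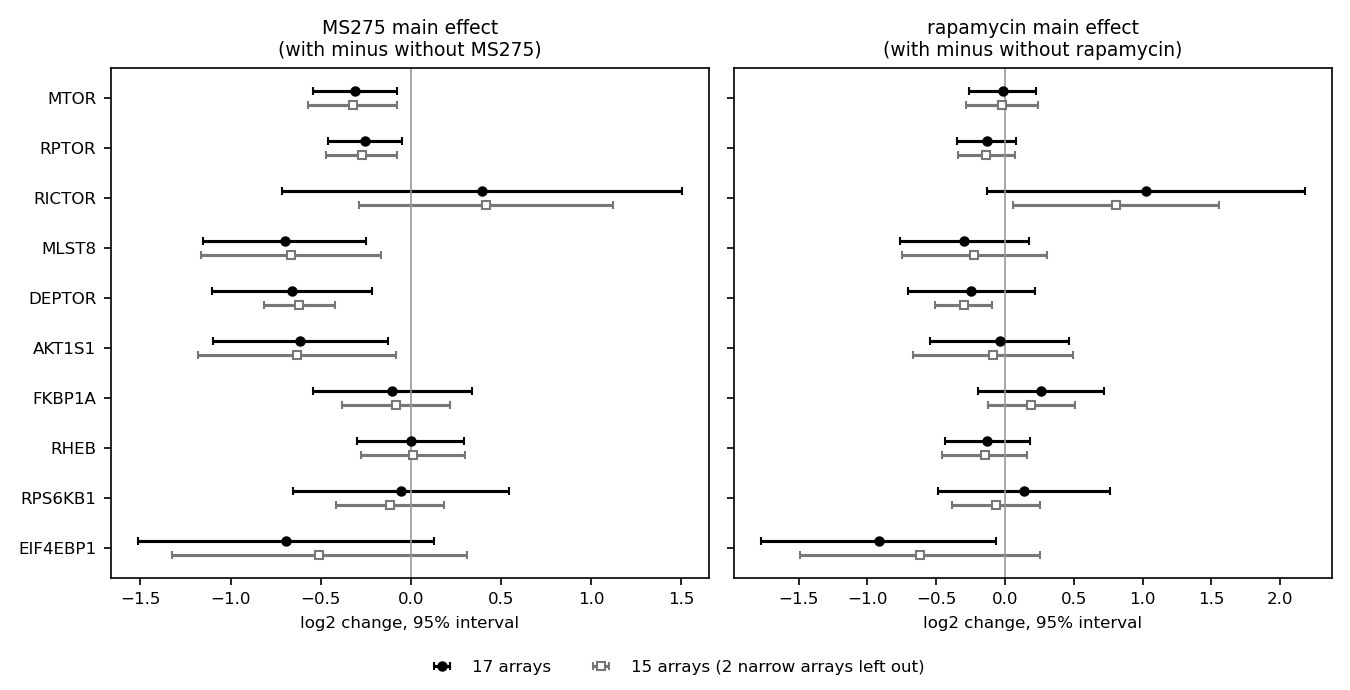
MS275 and rapamycin main effects (log2 change with 95% interval) of the 10 genes, with all 17 arrays (black) and without the 2 narrow arrays (grey). DEPTOR lies at -0.66 and MLST8 at -0.70 in the MS275 effect with all arrays. RICTOR has the widest black intervals and EIF4EBP1 the widest grey ones.

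Between the rapamycin doses, 10 nM against 1 nM, and between the combinations, 0% of all genes passed the threshold by limma, and none of the 10 did. Differences between the doses of rapamycin alone were from -0.11 (EIF4EBP1) to 0.20 (AKT1S1). The interaction, in which the combination's change is set against the sum of the single-drug changes, was not called for any gene at either dose (0% of all genes). For DEPTOR it was -0.81 at 1 nM, with an interval of -1.86 to 0.23, and -0.45 at 10 nM. Without the narrow arrays it was 0.00 at 1 nM, with a half-width of 0.48, and -0.10 at 10 nM. The 1 nM combination against MS275 passed for 0.106% of all genes and the 10 nM combination against MS275 for 0.253%, and for no member. DEPTOR was lower than with MS275 alone in the 1 nM combination, at -0.80 (adjusted p = 0.981 by limma) with all arrays and -0.33 without the narrow ones, and in the 10 nM combination, at -0.32. Counting genes whose arrays did not overlap between groups, there were 1 of 10 in each combination against MS275 (7.24% of all genes at 1 nM and 18.2% at 10 nM), 1 in the 1 nM combination against 1 nM rapamycin (21.7%) and 2 in the 10 nM combination against 10 nM rapamycin (20.9%). Against control there were 3 in the 1 nM combination (10.6%), 0 in 1 nM rapamycin (12.2%) and 1 in 10 nM rapamycin (8.05%), where 0.101% and 0.435% of all genes passed the threshold. Between the doses there were 0 for rapamycin alone (6.51%) and 1 for the combinations (10.1%).

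The replicate numbers shared a pattern in several genes. In all 5 groups of 3 arrays, replicate 2 was highest for RICTOR and lowest for MLST8 and EIF4EBP1, replicate 3 was highest for RHEB, and replicate 1 was lowest for DEPTOR. AKT1S1 was highest in replicate 2 in 4 of 5. The labels do not say what a number marks, and its part in the differences between groups was not tested beyond the block.

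The other probe sets had the same sign as the one used in 15 of 19 in the MS275 main effect and 14 of 19 in the rapamycin main effect. In the other 13 comparisons this held for 8 to 13 of 19. RPTOR, MLST8 and EIF4EBP1 have 1 probe set each, so they were not checked in this way. RHEB has 9 of the 29 probe sets, and its used MS275 main effect was -0.001, so a shared sign says little there. A single one passed: an FKBP1A probe set with a mean of 5.32, at -0.87 ± 0.18 in the MS275 main effect (adjusted p = 0.00961 by limma), beside -0.10 for the one used and -0.39 and -0.04 for the others. In the rapamycin main effect the RICTOR probe sets gave 1.03 (used), 0.68, 0.59 and -0.01.

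**Figure D5:**
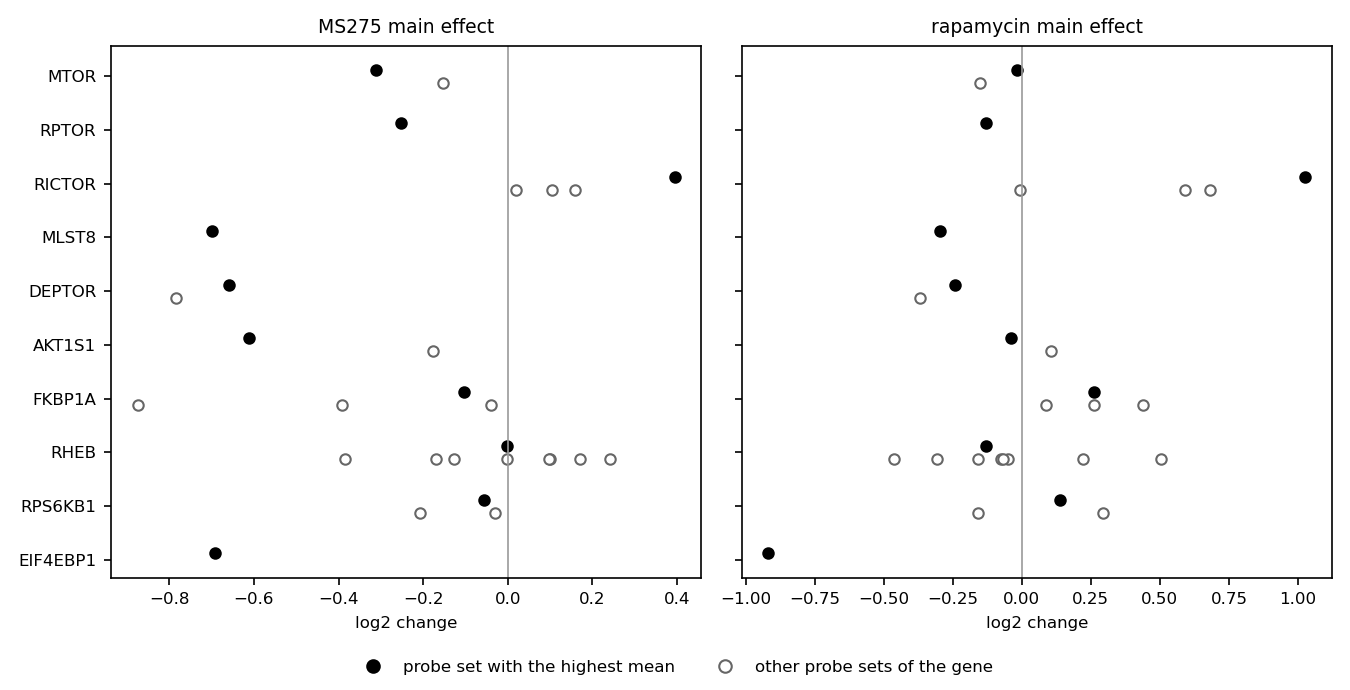
Log2 change of each probe set of the 10 genes in the MS275 and rapamycin main effects, with the one used marked. The dim FKBP1A probe set at -0.87 in the MS275 effect is the only one that passed the threshold.

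In 97 other measured genes of the pathway, from 106 listed, 7 passed in the MS275 main effect (7.22%, beside 8.13% of all genes) and 3 in the rapamycin main effect (3.09%, beside 2.35%). DDIT4, whose product REDD1 inhibits complex 1, fell most. It had signals of 6.37, 6.82 and 6.13 in the 1 nM combination and 6.49 and 6.28 in the 10 nM combination, against 11.01, 9.12 and 11.06 in control cells, with changes of -3.96 (adjusted p = 0.00559) and -4.01 (adjusted p = 0.0104) by limma. Over the alternatives the first ran from -4.60 to -3.61 and was not called without the 2 narrow arrays, and the second was not called without either of its replicates. Neither was called in a fit to only the arrays compared. Its rapamycin main effect was -2.88 ± 0.43 (adjusted p = 0.00191) and passed in all 25 alternative settings. The amino acid sensor SESN2 fell with rapamycin (-1.32, adjusted p = 0.0455), but passed in 9 of 25 settings. In the MS275 main effect FNIP2 (0.59, adjusted p = 0.0138) and KPTN (0.61, adjusted p = 0.00980), of the lysosomal nutrient-sensing machinery, rose and TSC2, a repressor of RHEB, fell (-0.60, adjusted p = 0.0202, in 22 of 25 settings). BTRC, a ubiquitin ligase subunit that targets DEPTOR, fell by 0.38 with an adjusted p of 0.0349, which held in 11 of 25 settings. In the FKBP family, FKBP9, a relative in the endoplasmic reticulum, rose with MS275 (0.96, adjusted p = 0.00256) and fell with rapamycin (-0.78, adjusted p = 0.0312, in 14 of 25 settings). FKBP4, an HSP90 co-chaperone named after its values were seen, fell with MS275 alone (-1.15, adjusted p = 0.0333, in 17 of 26 settings) and by -0.75 in the main effect (adjusted p = 0.00561). None of the 8 genes for complex 2 partners or assembly factors of this kinase family passed in any comparison with control or either main effect. The same held for the 4 related kinases and the 20 genes of substrates and their partners.

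The gene with the most similar pattern over the 17 arrays is given for DEPTOR, MTOR and MLST8 only, and was named after its values were seen. The rule asked for such genes only for members past the threshold, of which there were 0. They were KANSL2 for DEPTOR (r = 0.95, and 0.89 over the 15 arrays without the narrow ones) and XRCC3 for MTOR (r = 0.91 on both). COG1 had an r of 0.99 with MLST8 on both sets. Both genes of a pair were measured on the same arrays and share the properties of those arrays, and no p is given.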

How the data were processed

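Total RNA from L363 cells was prepared with TRIzol and labelled with biotin during amplification, per the labels' protocols. The authors deposited log2 signals per probe set, made with affy and RMA per the submitters' processing notes, with versions not given in the sources used here. They were used as deposited. Of 54613 probe sets, 41091 were annotated to 1 gene symbol, 1801 to several and 11721 to none, and 41037 of the single ones matched RefSeq genes (GRCh38.p14) by Entrez ID. Group means of 6 groups over 17 arrays were fitted with limma 3.58.1 in R 4.3.3 and 15 comparisons were adjusted by Benjamini-Hochberg over 19775 genes at 0.05. Intervals are 95%. The members and pathway lists were chosen with earlier results of these data known, and names outside the rule are stated as such. The code of the fits was run on simulated data with independent noise. These had no narrow arrays and no pattern by replicate number, so the run says nothing on the effect of either. No signal over background was available, so the number of arrays limits the precision. In 7 of 10 pairs of groups that share 3 replicate numbers, same-numbered arrays deviated together (every r over 0.1). No label states this pairing.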

Additional observations from a re-analysis of the deposited data

How the results depend on the processing

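Alternatives were the replicate block, quantile normalization, array weights, leaving out the 2 narrow arrays, the mean of all probe sets of a gene, only genes above the median level, an intensity trend, only the compared arrays, and leaving out each replicate. The replicate block with the narrow arrays left out, and the settings for the named pathway genes, were chosen after seeing the data. Each block fit included all groups, also the 10 nM combination, whose replicate numbers did not pair with those of other groups. No value past the threshold changed sign. Members past the threshold, 0 in every comparison as reported, were 1 in the 1 nM combination against control (5.22% of all genes called), 1 against 1 nM rapamycin (2.83%) and 2 in the MS275 main effect (12.5%) with the block. With array weights they were 1, 2 and 3 for both combinations (1 nM, then 10 nM) against control and the MS275 main effect (7.08%, 7.86% and 16% of all genes). Without the narrow arrays there was 1 in each of these 3 comparisons (3.15%, 4.74% and 11.6%), and with genes above the median level only there was 1 in the MS275 main effect (12.2%). With both the block and the narrow arrays left out there was 1 in MS275 against control (4.47%), 1 in each combination against control (5.78% and 6.74%), 1 in each against its rapamycin dose (2.26% and 3.15%) and 1 in the MS275 main effect (16.9%). Leaving out 1 replicate gave 0 to 1 members in the 1 nM combination against control and in the MS275 main effect, and 0 in the others. The signs of 34 of 150 member values differed without the narrow arrays. Precision is limited by 2 or 3 arrays per group.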
